A study of Mus musculus with 8 samples.

Results

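The mitosis and G2/M genes described here are 34 genes chosen by symbol, which encode the machinery that takes a cell from the end of DNA synthesis through chromosome segregation to cytokinesis. Of these, 33 had a probe set annotated with that symbol alone, among 22180 genes so annotated on the array, and the expression of 1, the cyclin gene Ccnb1, was not analysed here. Expression was measured in the left ventricle of female C57BL/6 mice, 3 to 4 months old by the protocol text, in 4 reproductive states with 2 arrays each. The states were diestrus, a non-pregnant phase of the estrous cycle that the series design names as the reference, day 12 of pregnancy, day 19 of pregnancy (18/19 days in the protocol text) and day 1.5 post-partum. The pregnant mice were bought as timed pregnancies, and the labels name no drug, transgene or gene deletion in any group. RNA came from 1 frozen piece of each ventricle, so all cell types of the tissue contribute to a value. The labels give separate samples but do not say that each came from its own animal, so p-values measure only the spread between these samples. Values are log2 RMA intensities, on which 1 unit is a 2-fold difference, and a difference between groups is given on this log2 scale unless it is called a fold.

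A dividing cell transcribes most of these genes late in the cycle, when the B-Myb and FoxM1 factors act with the MuvB complex on their promoters, while in resting cells the DREAM complex keeps the same promoters silent. Cyclins A and B activate the kinase Cdk1 to start mitosis, the kinetochore and the spindle checkpoint hold the cell until every chromosome is attached, and the anaphase-promoting complex then marks the cyclins for destruction. Most cardiomyocytes of the adult mouse no longer divide, and the cells of the adult ventricle known to divide include endothelial, stromal and immune cells. In a piece of tissue, fewer cells of a type and less RNA per cell cannot be told apart.

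Between pairs of arrays, the correlation over all probe sets was 0.980 to 0.992 among 7 of them, while day 19 replicate 2 correlated with these 7 at 0.969 to 0.977. The 11 cardiomyocyte markers had a mean level between 11.80 and 12.07 on the 8 arrays, and 0 of them lay below the median of all values. Markers of other sources differed between arrays. Atrial markers averaged 10.03 on day 19 replicate 1 and 6.17 to 8.13 on the other 7 arrays, and interferon response genes averaged 8.81 on day 19 replicate 2 and 6.37 to 6.73 on the others. Of the 33 mitosis genes, 27 had a mean over the 8 arrays at or above the median of all values on the arrays, 5.19. The others, Birc5, Kif4, Ttk, Bub1, Cenpe and Nuf2, had means from 3.98 to 5.17, so their differences below are between low values.

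As a set, the mitosis genes were highest post-partum. Averaged over the 33 genes, the level was 5.62 and 5.77 on the diestrus arrays, 5.91 and 5.60 at day 12, 5.78 and 6.08 at day 19, and 5.98 and 6.45 post-partum. Both post-partum arrays were above the diestrus arrays, and day 19 replicate 2 lay between the post-partum arrays. Day 19 replicate 1 was level with the higher diestrus array, and the day 12 arrays lay on either side of the diestrus pair. The diestrus mean was 5.69 ± 0.10 (SD, n = 2 here and below), and the means were 5.75 ± 0.22 for day 12, 5.93 ± 0.21 for day 19 and 6.21 ± 0.33 for the post-partum pair. A single array, post-partum replicate 4, held the highest of the 8 values for 26 of the 33 genes, where 9.41% of all genes had their highest value. Post-partum replicate 2 was highest for 3 genes, day 19 replicate 2 for 2 and each diestrus array for 1.

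**Figure D1:**
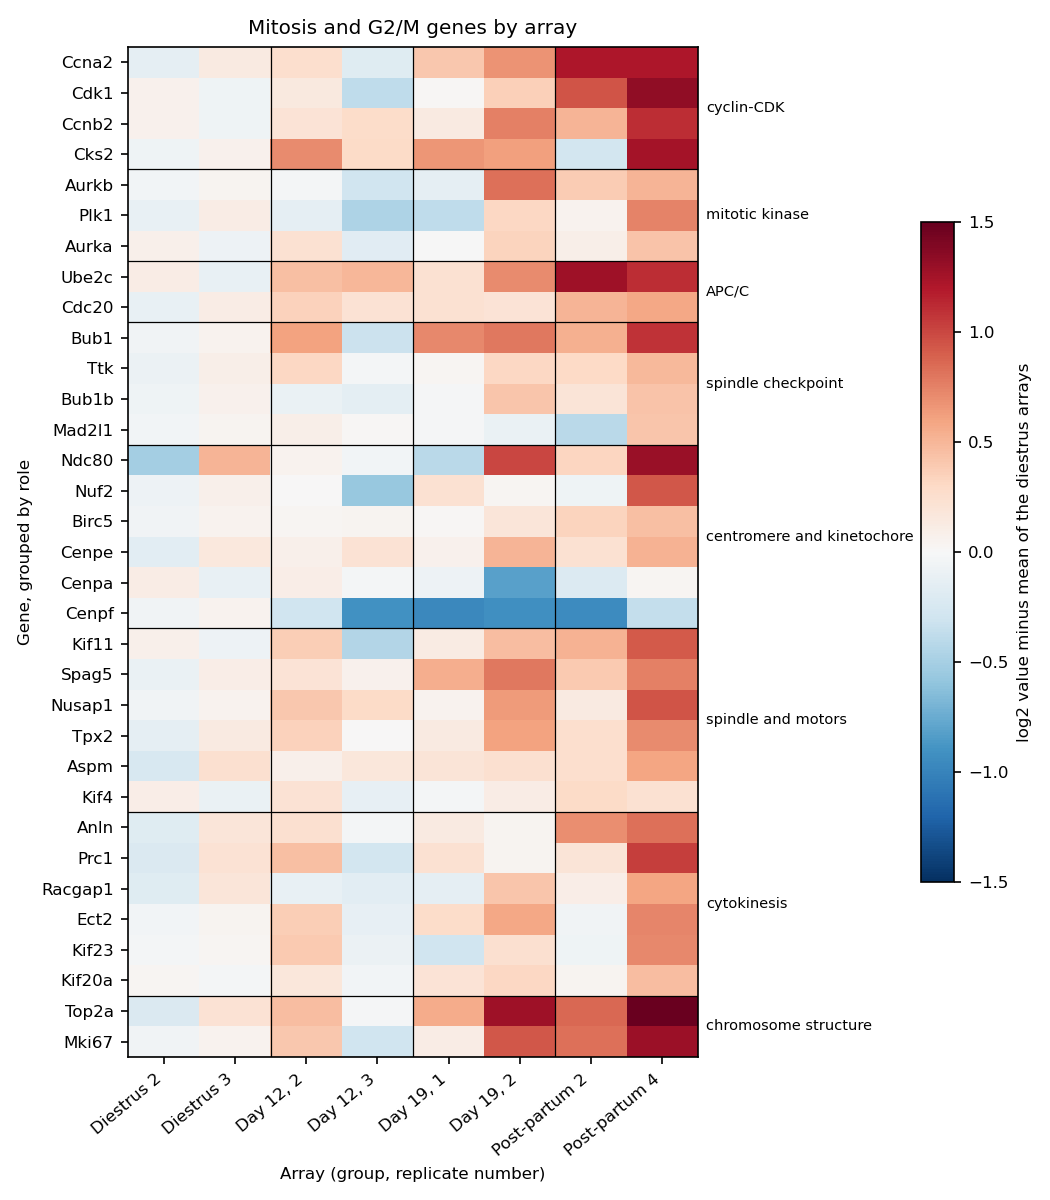
Each row is 1 of the 33 mitosis and G2/M genes, grouped by role, and each column 1 array, with the replicate number of its title. Colour gives the log2 value minus the mean of the 2 diestrus arrays, red for higher and blue for lower; the post-partum replicate 4 column is red for nearly every gene, and the Cenpf row is blue on all 6 arrays outside diestrus.

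Post-partum day 1.5 was set against diestrus to compare the ventricle shortly after birth with that of a non-pregnant female. The mean of 31 of the 33 genes was higher post-partum, against 51.0% of all 22180 genes, and the median difference was 0.45, against 0.0053 over all genes. Both post-partum arrays were above both diestrus arrays for 22 genes, where 20.3% of all genes showed such a separation, and below both for 1 gene, Cenpf, where 19.1% of all genes did. No gene passed limma's moderated test with Benjamini-Hochberg adjustment over all genes at a threshold of 0.05: 0 of the 33 genes and 0% of all genes were called. The smallest adjusted p among the 33 was 0.788. An unadjusted p under 0.05 was found for 12 of the 33 genes as higher and for 1 as lower, against 690 and 663 of all genes. Array weights, a trended and robust variance, and a fit on only the groups compared called 0 of the 33 as well. Post-partum replicate 4 carried much of the shift: without it the median was 0.25 with 26 genes higher, and without replicate 2 it was 0.74 with 32 higher.

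Cyclin A2, encoded by Ccna2, pairs with Cdk2 and Cdk1 in S and G2 phase and had the largest post-partum difference of the set. Ccna2 stood at 5.88 and 6.15 in the diestrus pair, 6.27 and 5.83 at day 12, 6.42 and 6.69 at day 19, then 7.23 and 7.23 post-partum. The post-partum arrays were clear of every other array, the difference from diestrus was 1.21 ± 0.19 (SE, n = 2 arrays per group) or 2.32-fold, and limma's adjusted p was 0.788. Cdk1, the kinase that drives entry into mitosis, stood at 6.59 and 6.48 in the diestrus pair, 6.68 and 6.16 at day 12, 6.55 and 6.89 at day 19, then 7.48 and 7.87 post-partum. Its post-partum values were again the highest of the 8, with no overlap with any other state and a difference from diestrus of 1.14 ± 0.22, or 2.20-fold. Cyclin B2, encoded by Ccnb2, is an activator of Cdk1. Ccnb2 averaged 7.70 post-partum, against 6.90 in diestrus, a difference of 0.80 ± 0.25, and its post-partum replicate 2, at 7.41, lay below day 19 replicate 2, at 7.66. The Cdk-binding subunit gene Cks2 gave 5.85 and 7.38 post-partum, against 6.07 and 6.19 in diestrus, so that the groups overlapped. Of the 4 probe sets annotated to Cks2, 3 held identical values on all 8 arrays, and the other gave 5.59 and 6.33 post-partum, against 5.47 and 5.69 in diestrus. Which copy of the sequence each of them reads was not tested.

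The 2 genes that serve the anaphase-promoting complex were high on both post-partum arrays. Ube2c, its ubiquitin-conjugating enzyme, stood at 6.39 and 6.16 in the diestrus pair, 6.72 and 6.77 at day 12, 6.50 and 6.98 at day 19, then 7.54 and 7.38 post-partum. It was separated from diestrus in all 3 later states, and the post-partum difference was 1.19 ± 0.19, or 2.28-fold. Cdc20, the activator that brings substrates to the complex, had 6.44 and 6.51 post-partum, against 5.82 and 6.03 in diestrus, a difference of 0.55 ± 0.14 with groups that did not overlap. Unlike most of the set, Ube2c did not have its highest value on post-partum replicate 4.

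Top2a and Mki67 are the genes most used to mark cycling cells: the first encodes topoisomerase II alpha, which untangles sister chromatids, and the second the Ki-67 protein that coats mitotic chromosomes. Top2a stood at 4.96 and 5.39 in the diestrus pair, 5.63 and 5.16 at day 12, 5.73 and 6.45 at day 19, then 6.04 and 6.66 post-partum. Its post-partum values were both above diestrus, with a difference of 1.17 ± 0.31 or 2.26-fold, but day 19 replicate 2 lay between them. Mki67 stood at 6.51 and 6.61 in the diestrus pair, 6.95 and 6.26 at day 12, 6.67 and 7.49 at day 19, then 7.38 and 7.84 post-partum, and gave 1.05 ± 0.32, or 2.08-fold, between post-partum and diestrus. For this gene as well, day 19 replicate 2 lay between the 2 post-partum arrays.

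**Figure D2:**
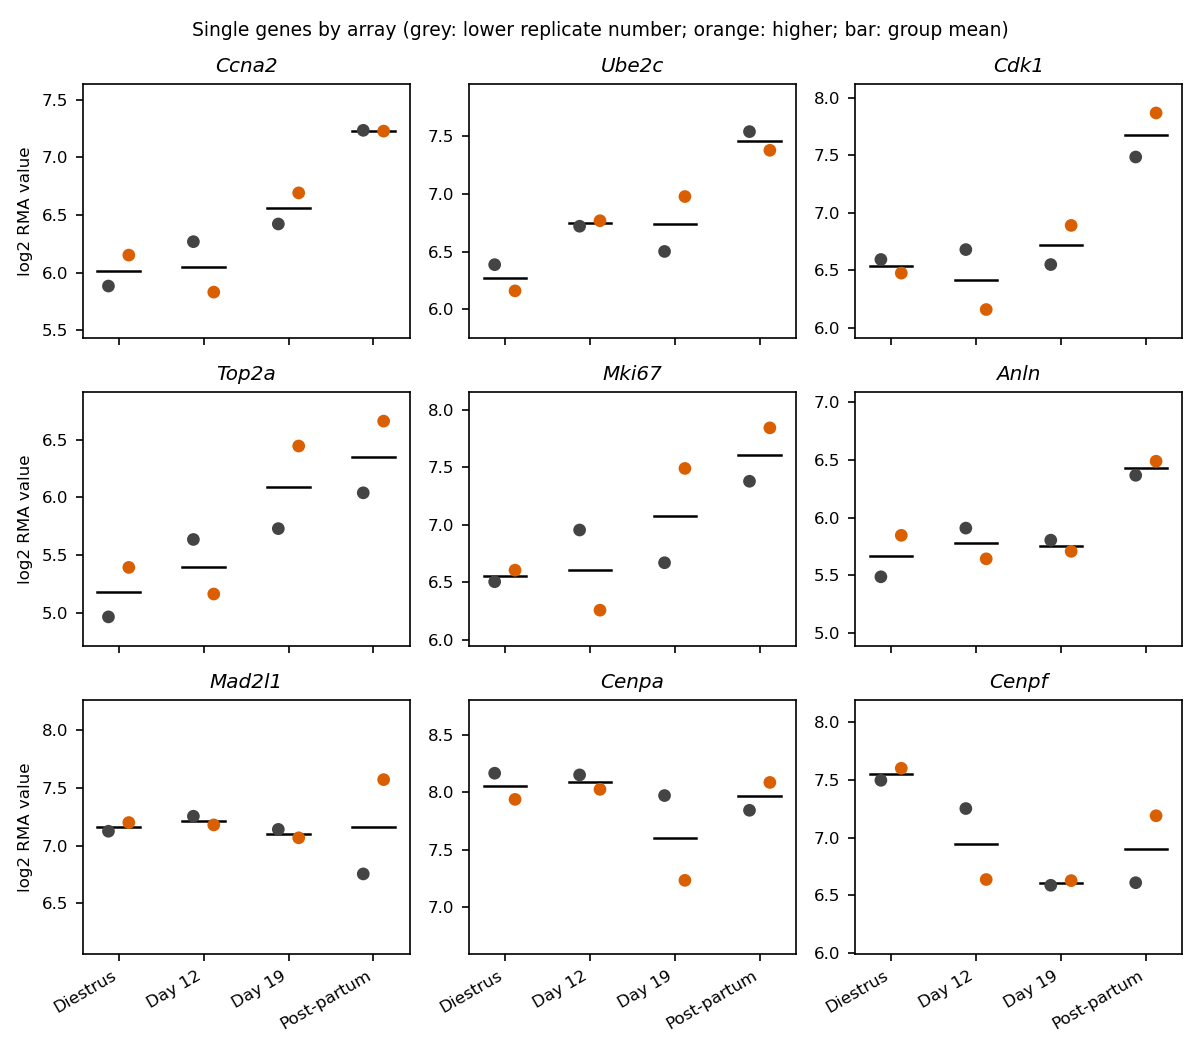
Log2 RMA value (vertical axis, 2.2 units in every panel) of 9 genes on each array, by state along the horizontal axis; grey points are the lower and orange points the higher replicate number of a state, and bars are group means. Both post-partum points of Ccna2, Ube2c, Cdk1 and Anln lie above all other points, Mad2l1 spreads around the diestrus level, and Cenpf is highest in diestrus.

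Among the spindle checkpoint genes, whose products delay anaphase until chromosomes are attached, the kinase gene Bub1 had 4.90 and 5.45 post-partum, against 4.31 and 4.43 in diestrus, a difference of 0.81 ± 0.30. Ttk, which encodes the Mps1 kinase, and Bub1b, which encodes BubR1, differed by 0.39 and 0.31 without overlap. Mad2l1, the gene of the Mad2 inhibitor of Cdc20, gave 6.75 and 7.57 post-partum, against 7.13 and 7.20 in diestrus. The post-partum arrays of Mad2l1 lay on either side of diestrus, and the difference was 0.00092 ± 0.24. The mitotic kinases Aurkb, Plk1 and Aurka differed by 0.45, 0.40 and 0.26, and only Plk1, the polo-like kinase, had overlapping groups among these 3.

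All 6 spindle genes were higher post-partum without overlap with diestrus: the mitotic kinesin gene Kif11 by 0.72, the microtubule-binding protein genes Spag5 by 0.57 and Nusap1 by 0.54, the Aurora A activator Tpx2 by 0.48, the spindle pole gene Aspm by 0.42 and the chromokinesin gene Kif4 by 0.26. Kif11 had 6.12 and 6.52 post-partum, against 5.68 and 5.53 in diestrus. Of the 6 cytokinesis genes, 2 were separated from diestrus. Anln, the gene of anillin, a scaffold of the contractile ring, stood at 5.49 and 5.85 in the diestrus pair, 5.91 and 5.64 at day 12, 5.80 and 5.71 at day 19, then 6.37 and 6.49 post-partum. Its 2 post-partum values were the highest of the 8 arrays and close to each other, and the difference from diestrus was 0.76 ± 0.17, or 1.70-fold. Kif20a, a kinesin of the central spindle, gave 0.25. The groups of the other 4 overlapped: the central spindle genes Prc1 (0.61), Racgap1 (0.35) and Kif23 (0.32), and Ect2 (0.34), whose product activates RhoA at the division plane. For Ect2 and Kif23, post-partum replicate 2 was at 5.68 and 5.97 and replicate 4 at 6.47 and 6.76, against diestrus values of 5.69 and 5.78 for Ect2 and 6.00 and 6.08 for Kif23.

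Centromere and kinetochore genes were the most mixed of the roles. Birc5, which encodes survivin of the chromosomal passenger complex, and Cenpe, a kinetochore kinesin gene, differed by 0.40 and 0.37 without overlap. The Ndc80 complex binds spindle microtubules, and its gene Ndc80 had 5.64 and 6.61 post-partum, against 4.81 and 5.82 in diestrus, a difference of 0.81 ± 0.51 with 1 diestrus array above 1 post-partum array, while its partner Nuf2 gave 0.44, also with overlap. Cenpa, the gene of the centromeric histone H3 variant, gave 7.84 and 8.08 post-partum, against 8.16 and 7.94 in diestrus, a difference of -0.087. Cenpf, which encodes a large kinetochore and nuclear matrix protein of G2 and mitosis, ran opposite to the rest. Cenpf stood at 7.50 and 7.60 in the diestrus pair, 7.25 and 6.64 at day 12, 6.59 and 6.63 at day 19, then 6.61 and 7.19 post-partum. Both diestrus arrays were above the other 6, and the differences from diestrus were -0.61 ± 0.25 at day 12, -0.94 ± 0.25 at day 19 and -0.65 ± 0.25 post-partum, with adjusted p of 1.00, 0.688 and 0.788 in limma.

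**Figure D3:**
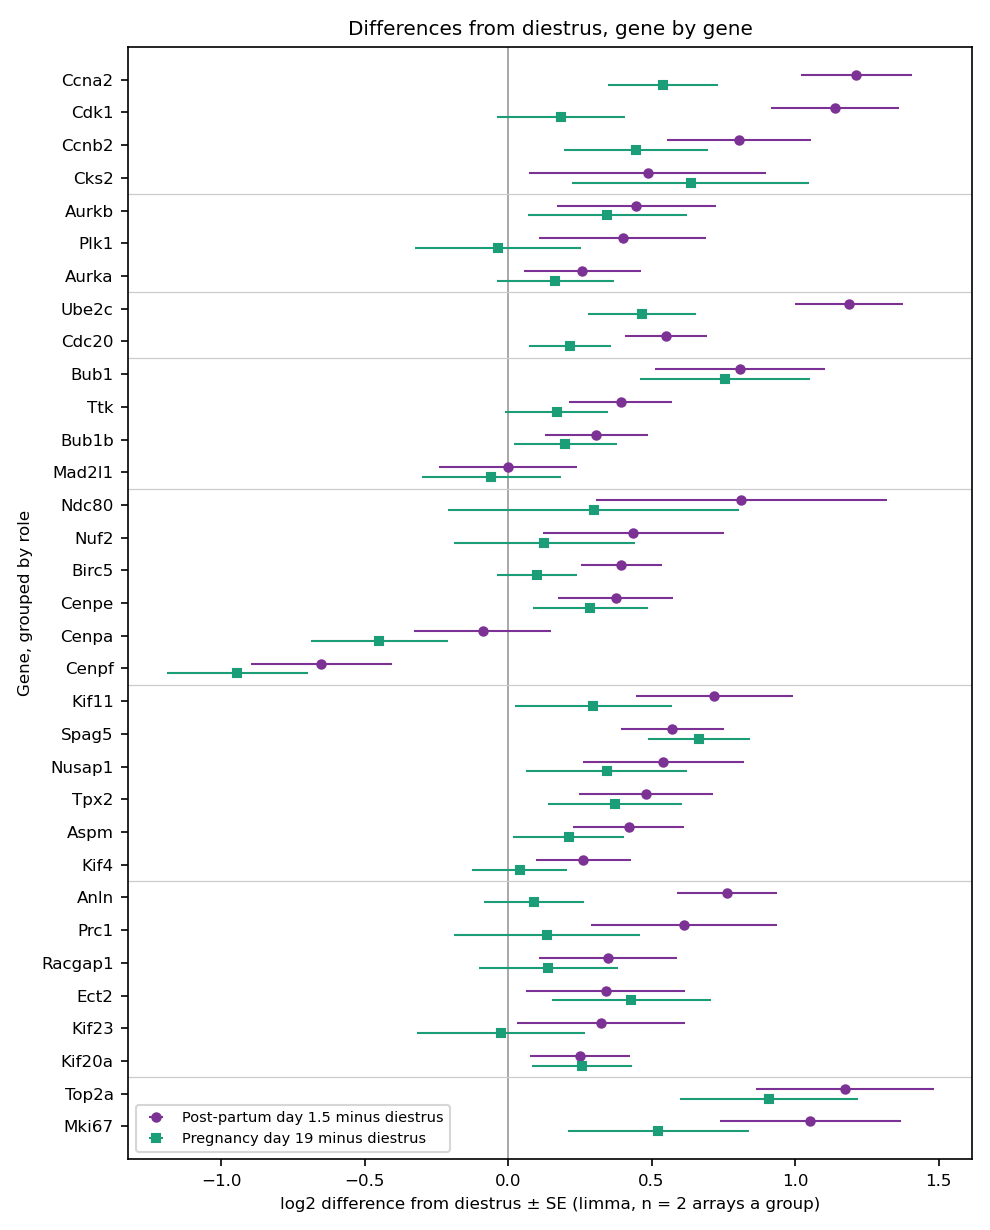
Log2 difference from diestrus (horizontal axis) of each mitosis and G2/M gene, grouped by role, post-partum (purple circles) and at day 19 (green squares), with the limma standard error as bars and 2 arrays per group. Ccna2, Ube2c, Top2a and Cdk1 show the largest post-partum differences, between 1.14 and 1.21, and Cenpf is the lowest gene in both comparisons.

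The promoters of 3 genes with large post-partum differences, and that of Cenpf, which ran the other way, are shown for the elements that G2/M promoters are known for: the CCAAT box, bound by the factor NF-Y, and the cell cycle genes homology region (CHR), bound by MuvB complexes. Each sequence is the RefSeq window of 300 bases on GRCm38.p6, 250 before to 50 after the gene's annotated start, in 5′ to 3′ order of the gene. Capitals mark every CCAAT box, written CCAAT or, where it lies on the other strand, its reverse complement ATTGG. They also mark every CHR, whose letters are TTTGAA or, on the other strand, the reverse complement TTCAAA, together with a variant that reads the same on both strands, TTTAAA. The windows are chr10:69352863-69353162 (minus strand) for Cdk1, chr11:99024140-99024439 (minus strand) for Top2a, chr2:164769679-164769978 (plus strand) for Ube2c and chr1:189688037-189688336 (minus strand) for Cenpf.
Cdk1: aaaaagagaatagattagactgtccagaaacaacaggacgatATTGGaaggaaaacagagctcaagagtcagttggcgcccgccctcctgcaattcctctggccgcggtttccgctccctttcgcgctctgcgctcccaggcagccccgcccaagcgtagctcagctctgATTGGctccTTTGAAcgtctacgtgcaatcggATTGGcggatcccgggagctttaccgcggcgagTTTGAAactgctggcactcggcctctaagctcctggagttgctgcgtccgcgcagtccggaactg
Top2a: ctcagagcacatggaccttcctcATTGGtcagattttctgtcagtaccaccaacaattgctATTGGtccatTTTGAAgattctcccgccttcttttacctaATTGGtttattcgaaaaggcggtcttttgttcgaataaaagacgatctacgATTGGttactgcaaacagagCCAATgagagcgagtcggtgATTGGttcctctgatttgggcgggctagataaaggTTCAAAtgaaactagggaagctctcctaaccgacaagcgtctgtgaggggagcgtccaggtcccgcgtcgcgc
Ube2c: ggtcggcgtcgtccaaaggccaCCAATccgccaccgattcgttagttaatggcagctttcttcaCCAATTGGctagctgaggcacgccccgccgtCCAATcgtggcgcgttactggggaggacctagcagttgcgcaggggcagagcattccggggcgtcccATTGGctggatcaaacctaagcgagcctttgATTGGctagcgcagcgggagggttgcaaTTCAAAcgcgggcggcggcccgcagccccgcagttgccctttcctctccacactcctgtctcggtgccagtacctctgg
Cenpf: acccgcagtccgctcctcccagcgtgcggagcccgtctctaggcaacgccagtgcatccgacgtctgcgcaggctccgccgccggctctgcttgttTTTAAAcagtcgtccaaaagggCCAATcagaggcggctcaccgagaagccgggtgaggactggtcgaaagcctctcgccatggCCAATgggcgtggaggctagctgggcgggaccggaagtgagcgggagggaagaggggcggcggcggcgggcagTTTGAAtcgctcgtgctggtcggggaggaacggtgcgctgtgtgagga
The Cdk1 window held 3 CCAAT boxes and 2 CHR matches, of which the nearer began 15 bases before the start. Top2a held 6 CCAAT boxes and 2 CHR matches, the nearer beginning 23 bases before the start, and Ube2c held 6 CCAAT boxes, 2 of them overlapping on opposite strands, and 1 CHR match, beginning 29 bases before it. Cenpf held 2 CCAAT boxes and 2 CHR matches, of which the TTTAAA variant began 154 bases before the start and the other lay just after it. In all, 30 of the 34 genes had a window, Ccnb1 included, and Ccna2, Aurkb, Tpx2 and Kif20a were not matched. A CCAAT box was found in 24 of the 30 (80.0%), against 41.1% of 27025 genes with a window, and a CHR match in 25 (83.3%), against 30.6%. Both elements were found in 22 (73.3%), against 13.4%, and at least 2 CCAAT boxes in 17 (56.7%), against 13.3%. Neither element was found in Nuf2, Nusap1 and Mad2l1. A match of letters is not evidence that a factor was bound in these hearts.

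Late pregnancy was read from day 19 set against diestrus. The set was higher by a smaller margin, with 28 of the 33 genes higher, against 48.8% of all genes, and a median of 0.22, against -0.0061 over all genes. Both day 19 arrays were above both diestrus arrays for 14 of the 33 genes (17.8% of all genes) and below both for 1, Cenpf (18% of all genes). In limma 0 of the 33 genes were called, as were 0% of all genes. An unadjusted p under 0.05 was found for 5 of the 33 as higher and for 1 as lower, against 854 and 736 of all genes. The post-partum and day 19 comparisons share the diestrus arrays.

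Top2a gave the largest day 19 difference, with 5.73 and 6.45 at day 19, against 4.96 and 5.39 in diestrus, which is 0.91 ± 0.31 or 1.88-fold (adjusted p = 0.688 in limma). Without day 19 replicate 2 this difference was 0.55 and without replicate 1 it was 1.27. Bub1 had 5.09 and 5.16 at day 19, against 4.31 and 4.43 in diestrus, a difference of 0.76 ± 0.30, and Spag5 had 5.54 and 5.78 at day 19, against 4.89 and 5.10 in diestrus, a difference of 0.66 ± 0.18. In both genes the day 19 arrays lay clear of diestrus, and those of Bub1 lay close together. Cks2 (0.64), Ccna2 (0.54), Mki67 (0.52), Ube2c (0.47), Ccnb2 (0.45) and Ect2 (0.43) followed without overlap. The Cks2 probe set with differing values showed a smaller gap, with 5.81 and 5.89 at day 19, against 5.47 and 5.69 in diestrus. Anln and Cdk1, which were among the highest post-partum, gave 0.090 and 0.18 at day 19 with overlapping groups.

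Much of the day 19 shift was on 1 array. Replicate 2 was above both diestrus arrays for 27 of the 33 genes and replicate 1 for 16, where 37.7% and 33.4% of all genes were. Without replicate 2 the median of the 33 differences was 0.11 with 22 genes higher, and without replicate 1 it was 0.42 with 30 higher. Aurkb, the kinase of the chromosomal passenger complex, was at 5.81 on replicate 1 and 6.76 on replicate 2, and Ndc80 at 4.91 and 6.32. On the same 2 arrays, 15 macrophage and monocyte markers averaged 0.17 and 1.50 above the diestrus mean, 13 lymphocyte markers -0.22 and 0.88, and 12 interferon response genes 0.052 and 2.43. Of these lists, 14 of 15, 7 of 13 and 11 of 12 genes were higher at day 19 than in diestrus. Endothelial markers averaged -0.051 on replicate 1 and -0.46 on replicate 2, fibroblast markers -0.0054 and -0.61, and pericyte and smooth muscle markers -0.15 and -0.44, while the 5 atrial markers averaged 3.07 and -0.54. At day 19, 4 of 12 endothelial, 2 of 11 fibroblast, 1 of 10 pericyte and smooth muscle and 4 of 5 atrial markers were higher than in diestrus. Cardiomyocyte markers averaged -0.0415 on replicate 1 and -0.20 on replicate 2, with 1 of 11 higher at day 19 than in diestrus. The part of these cell types in the day 19 values of the mitosis genes was not tested.

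At day 12 of pregnancy the set stood near diestrus. The median difference was 0.069, against 0.0084 over all genes, with 25 of the 33 genes higher, against 52.2% of all genes. Both day 12 arrays were above both diestrus arrays for 5 genes, Ccnb2, Cdc20, Nusap1, Ube2c and Cks2, a share of 15.2% where 19.5% of all genes were separated. They were below both for 3 genes, Cenpf, Plk1 and Bub1b, or 9.09%, where 16.5% of all genes were. In limma 0 of the 33 genes were called, as were 0% of all genes, with 1 of the 33 at an unadjusted p under 0.05 as higher, 1 as lower, and 331 and 401 of all genes. The 2 day 12 arrays disagreed: replicate 2 was above both diestrus arrays for 22 genes and replicate 3 below both for 16, and without replicate 2 the median was -0.046 with 11 genes higher, while without replicate 3 it was 0.22 with 28 higher. Ube2c, with 6.72 and 6.77 at day 12, against 6.39 and 6.16 in diestrus, had a difference of 0.47 ± 0.19, and Cdc20 gave 0.28 ± 0.14.

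**Figure D4:**
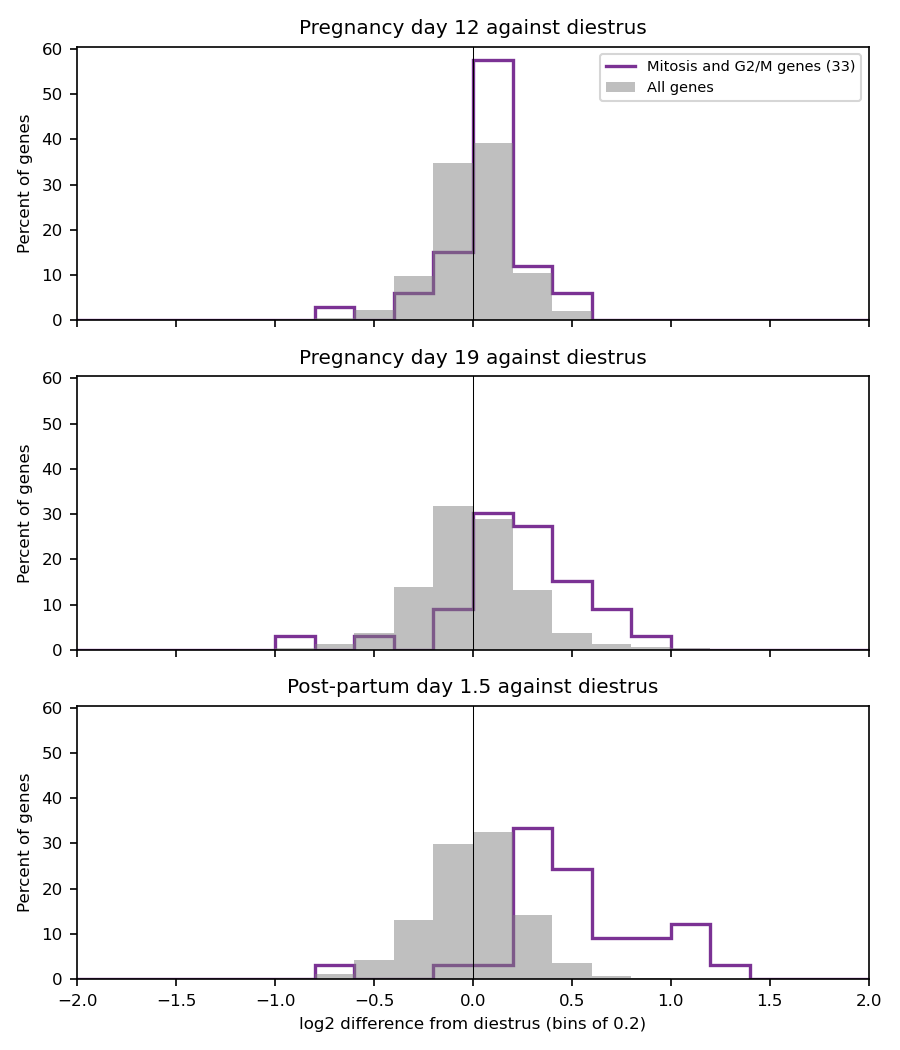
Share of genes (vertical axis, percent) by log2 difference from diestrus (horizontal axis, bins of 0.2) for the 33 mitosis and G2/M genes (purple line) and all 22180 genes (grey), in the 3 comparisons. At day 12 both outlines peak in the bin from 0 to 0.2, which holds 57.6% of the set and 39.2% of all genes. The purple outline is shifted to the right at day 19 with a median of 0.22, and is furthest right post-partum with a median of 0.45.

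Successive states were compared as well. For day 19 against day 12, the median difference was 0.19, against -0.0061 over all genes. Of the 33 genes, 25 were higher, against 48.9% of all genes. Both day 19 arrays were above both day 12 arrays for 8 genes (24.2%, against 18.2% of all genes). They were below both for 3 genes, Cenpa, Cenpf and Mad2l1 (9.09%, against 19.2% of all genes). Spag5 (0.52) and Ccna2 (0.51) had the smallest p, while Ube2c gave -0.0044. For post-partum against day 19, the median was 0.26, against 0.0020 over all genes, with 29 genes higher, against 50.4% of all genes. Both post-partum arrays were above both day 19 arrays for 9 genes (27.3%, against 17.1% of all genes), and 0 genes lay below (15% of all genes). The 9 genes were Cdk1 (0.95 ± 0.22), Ube2c (0.72 ± 0.19), Ccna2 (0.67 ± 0.19), Anln (0.67 ± 0.17), Kif11 (0.42), Cdc20 (0.33), Birc5 (0.29), Kif4 (0.22) and Aspm (0.21). Top2a and Bub1, the highest at day 19, gave 0.26 and 0.052 here, with overlapping groups. In limma 0 of the 33 genes and 0% of all genes were called in either comparison, at smallest adjusted p of 0.782 and 0.714. An unadjusted p under 0.05 was found for 2 of the 33 genes between day 19 and day 12 (647 of all genes higher and 610 lower) and for 5 between post-partum and day 19 (785 higher and 704 lower), all of the set higher. Without day 19 replicate 2 the day 19 against day 12 median was -0.0080, and without replicate 1 it was 0.31. Aurkb differed by 0.99 without day 19 replicate 1 and by 0.034 without day 19 replicate 2. The median of the post-partum against day 19 comparison was 0.030 without post-partum replicate 4 and 0.086 without day 19 replicate 1, against 0.48 without post-partum replicate 2.

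A moderated F test over the 3 states against diestrus gave an unadjusted p under 0.05 for 9 of the 33 genes and for 1219 of all genes. None passed after adjustment (0 of 33, and 0% of all genes). The 9 genes were Ccna2, Ube2c, Cdk1, Anln, Spag5, Top2a, Cenpf, Cdc20 and Mki67.

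The 33 genes varied together over arrays, also between the 2 arrays of a state. The median Pearson correlation of a gene with the mean of the other 32 was 0.84 over the 8 arrays (range -0.28 to 0.96), and 0.79 (range -0.23 to 0.99) after the group means were removed. Points of this kind share an array and a state, so the values are descriptions. With group means removed, the 2 arrays of a state mirror each other. The values within states therefore rest only on the difference between the 2 arrays of each state. Mki67 (0.96), Tpx2 (0.94), Top2a (0.93) and Ttk (0.93) followed the rest most closely, and only Cenpa (-0.28) and Cenpf (-0.11) ran against it. Within states, Cenpf followed the other genes (0.87): its higher post-partum and day 12 values fell on the arrays where the rest were also higher. Ube2c did the opposite, with 0.68 over all arrays and 0.034 within states. Between the 2 arrays of a state, replicate 4 was above replicate 2 post-partum for 30 of the 33 genes (median 0.42), and replicate 3 was above replicate 2 in diestrus for 25 (median 0.12). Replicate 3 was above replicate 2 at day 12 for 5 genes (median -0.33), and replicate 2 above replicate 1 at day 19 for 26 (median 0.31). The same median differences over all genes lay between -0.012 and -0.0045.

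The genes outside the set whose values over the 8 arrays were most like the mean of the 33 were ranked among 12236 genes at or above the median level. The 10 nearest, at r = 0.98 to 0.93 over 8 arrays, were Slx4, a scaffold of DNA repair nucleases, Amdhd2, the condensin subunit gene Ncaph, the kinetochore gene Knstrn, Arhgap11a, the nuclear envelope gene Nrm, Tbc1d9b, the histone gene H2ac10, Nmral1 and the replicative helicase subunit gene Mcm5. Mcm5 stood at 6.18 and 6.45 in the diestrus pair, 6.39 and 6.35 at day 12, 6.50 and 6.83 at day 19, then 6.97 and 7.35 post-partum. Both its post-partum values were above the other 6. Knstrn stood at 5.29 and 5.23 in the diestrus pair, 5.41 and 5.26 at day 12, 5.40 and 5.65 at day 19, then 5.56 and 5.87 post-partum, with day 19 replicate 2 between the post-partum arrays.

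Other cell cycle genes were read from lists by role. Genes of DNA replication were higher post-partum than in diestrus for 24 of 25 measured members, with a median of 0.38, and 17 were separated without overlap, where 20.3% of all genes were. Their mean over the list was 0.085 and 0.019 at day 12, 0.080 and 0.13 at day 19, and 0.37 and 0.47 post-partum relative to the diestrus mean, so that the 2 post-partum arrays were closer to each other than for the mitosis genes. The helicase subunit genes Mcm3 and Mcm5 gave 0.86 and 0.84, and Gins2 0.80. Further genes of the spindle, centrosome and cytokinesis were higher for 29 of 33, with a median of 0.31 and 23 separated against the same 20.3% of all genes, led by the mitotic kinase gene Pbk (0.73), Iqgap3 (0.69) and the microtubule depolymerase gene Kif2c (0.58). Of these 33 genes, 20 had a mean level below the median of all values. Further centromere and kinetochore genes were higher for 18 of 28 (median 0.20), with the centromere genes Cenpn at 0.64 and Cenpk at 0.53 and Spc24, of the Ndc80 complex, at 0.46. At day 12 and day 19 the medians of these 3 lists lay between -0.0016 and 0.097. In limma 0 of the genes in these lists were called in any of the 3 comparisons with diestrus.

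Regulators of the set were less uniform. Of 22 genes of MuvB, B-Myb, FoxM1, E2F, pocket protein and NF-Y factors, 16 were higher post-partum with a median of 0.21, led by the activator E2f1 (0.72) and by E2f2 (0.46) and the repressor E2f7 (0.41). Of the 22, 12 were separated from diestrus as higher (20.3% of all genes) and 2 as lower (19.1% of all genes). Their list mean was 0.19 and 0.17 above the diestrus mean on post-partum replicates 2 and 4. Among 11 genes of G1 cyclins, CDKs, Cdc25 phosphatases and Myc, 9 were higher (median 0.14), including cyclin D1, Ccnd1 (0.57), and cyclin E1, Ccne1 (0.49). Inhibitors and brakes of the cycle were higher post-partum for 8 of 12, with a median of 0.054, and the CDK inhibitor genes Cdkn1b and Cdkn1c gave -0.86 and -0.37. At day 19 the inhibitor gene Cdkn1a, which encodes p21, gave 1.51, the antiproliferative gene Btg2 0.96 and the Cdk1-inhibiting kinase gene Wee1 -0.85. Structural parts of the machinery had medians near 0: 13 genes of the anaphase-promoting complex, its partner Ube2s included, had a post-partum median of 0.020 with 7 higher, and 20 condensin and cohesin genes 0.034 with 10 higher, although the condensin genes Ncapd2 and Ncaph gave 0.54 and 0.52. In limma 0 genes of these 4 lists were called in any comparison with diestrus.

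**Figure D5:**
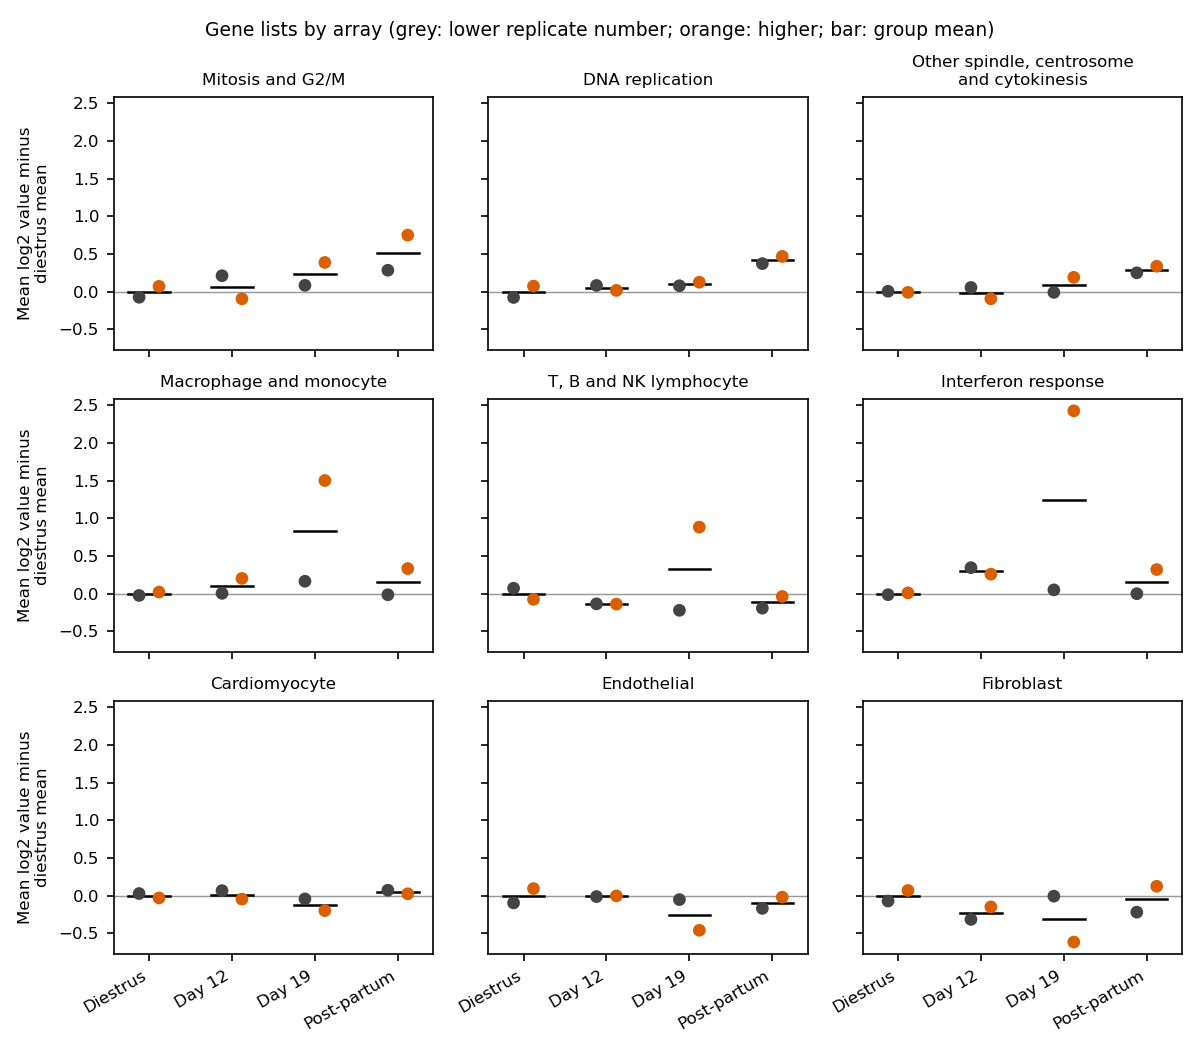
Mean log2 value of 9 gene lists on each array minus the mean of the diestrus arrays (vertical axis), by state; grey and orange points are the lower and higher replicate number and bars are group means. The mitosis and G2/M, DNA replication and spindle panels have their highest group mean post-partum. In the mitosis panel, day 19 replicate 2 lies between the post-partum points. The macrophage, lymphocyte and interferon panels have their highest point on day 19 replicate 2.

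Markers of the cell types that could carry these transcripts were set beside them. On the post-partum arrays, where the mitosis genes averaged 0.29 and 0.75 above the diestrus mean, macrophage and monocyte markers averaged -0.013 and 0.33, lymphocyte markers -0.19 and -0.036, and interferon response genes 0.0012 and 0.32. Endothelial markers averaged -0.17 and -0.019 on those arrays, fibroblast markers -0.22 and 0.13, and pericyte and smooth muscle markers -0.21 and -0.070. All 6 of these list means were higher on replicate 4 than on replicate 2, as the mitosis genes were. Cardiomyocyte markers averaged 0.074 and 0.026, lower on replicate 4, with 9 of 11 higher post-partum than in diestrus. Post-partum, 10 of 15 macrophage and monocyte, 6 of 13 lymphocyte, 4 of 12 endothelial, 5 of 11 fibroblast and 3 of 10 pericyte and smooth muscle markers were higher than in diestrus. The 6 measured erythroid markers averaged 0.53 and 0.23 above diestrus, and 3 of them, like 8 of 13 lymphocyte markers, had a mean level below the median of all values. Which cells held the mitotic transcripts was not tested.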

How the data were processed

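RNA from the left ventricle of 8 samples, 2 in each of 4 states, was hybridised to Affymetrix arrays from 100 ng of total RNA. The deposited values are log2 intensities that the authors summarised by RMA. The program was Expression Console of Affymetrix, per the submitters' processing notes. Its version, the probe library and the build were not given in the sources used here. They were used without further normalization, since the array medians lay between 5.14 and 5.28. Precision is limited by the 2 arrays per state.

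Of 34365 probe sets, 23521 carried 1 gene symbol in the platform annotation, 1814 several and 9030 none. Genes were named through those with 1 symbol, 23328 of which matched RefSeq by Entrez ID, and the probe set with the highest mean was kept for each of 22180 genes. Group means were fitted with limma 3.58.1 in R 4.3.3 on all 8 arrays (4 residual and 4.24 prior degrees of freedom), with two-sided moderated tests and Benjamini-Hochberg adjustment over all genes at 0.05. The fit was tested on simulated data. Genes of the set were all reported. From other lists, genes were named from those with the smallest unadjusted limma p in a comparison with diestrus, whatever their direction. The members and lists were chosen with earlier results of these data known. Filters on low values, probe set averaging, array weights, a trended variance, fits on only the groups compared, centred arrays, a replicate block and leaving out each array were tried. Promoter windows came from RefSeq on GRCm38.p6.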

Additional observations from a re-analysis of the deposited data

How the results depend on the processing

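With 2 arrays per state, single arrays set the size of the shift. Over fits that left out 1 array each, the median of the 33 mitosis genes was 0.25 to 0.74 for post-partum against diestrus, 0.11 to 0.42 for day 19 against diestrus, -0.046 to 0.22 for day 12 against diestrus, -0.0080 to 0.34 for day 19 against day 12 and 0.030 to 0.48 for post-partum against day 19. Genes of the set called by limma numbered 0 to 1 for day 19 against day 12, and 0 in the other comparisons, over the same fits. Leaving out day 19 replicate 1 called 798, 786 and 603 of all genes in the 3 comparisons that involve day 19. Of the 33 genes, 24 were higher and 1 was lower post-partum than in diestrus under every alternative tried, 18 and 3 at day 19, and 8 and 4 at day 12. Array weights, a trended and robust variance, and fits on only the groups compared left the medians unchanged. So did leaving out an array of a state outside the comparison. The same count was not made over all genes. Filters on low values left 13872 genes with 29 of the set, or 13120 with 27, and called 0 of them. With each array centred on its median the day 19 median was 0.15 and that of all genes -0.075. Only diestrus and day 12 share both replicate numbers, the deviations of their arrays correlated at 0.11, and the samples share only a number. With the replicate number as a block, 1 residual degree of freedom was left, the numbers 1 and 4 occur once each, the post-partum against day 19 median was -0.25 (11 genes higher, 22 lower), and 513, 471 and 481 of all genes were called for day 19 against diestrus, day 19 against day 12 and post-partum against day 19, with 0 of the set. In the block fit, a number that occurs once absorbs its array. The post-partum against day 19 difference there was therefore post-partum replicate 2 minus day 19 replicate 2. In that fit's comparisons with diestrus and day 12, the day 19 side was likewise replicate 2 alone. Against diestrus, the post-partum side was replicate 2 alone. The cause of the other moves was not tested.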
